A study of Arabidopsis thaliana with 12 samples.

Results

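Cytochromes P450 are haem-containing monooxygenases, mostly of the endoplasmic reticulum, that insert oxygen into hormones, phenolic compounds, terpenoids, fatty acids and defence metabolites. Plant P450s are numbered by family (the number) and subfamily (the letter), and families are joined in clans. The largest plant clan is clan 71, which holds most of the enzymes of specialised metabolism, and its CYP71B subfamily in *Arabidopsis* is spread over tandem arrays of related genes. The genes described here are the 24 P450 genes that the annotation of the array names alone on a probe set under a CYP symbol of family, subfamily and gene number, out of 16550 genes named in this way. The rule uses names and no measured values. All 24 have 1 probe set each and the same symbol in RefSeq, all belong to clan 71, and 20 of them are CYP71B genes. The others are *CYP79A2*, *CYP79C2*, *CYP78A9* and *CYP84A4*. RefSeq (TAIR10.1) lists 225 genes with such a symbol, 35 of them CYP71B genes, so that the set covers a small share of the superfamily and most of 1 subfamily, and it does not stand for the P450s as a whole.

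Transcript levels were measured on *Arabidopsis* Gene 1.0 ST arrays in 3-day-old whole seedlings of wild type Col-0 (WT) and of the *pifq* mutant, which lacks the transcription factors PIF1, PIF3, PIF4 and PIF5 that accumulate in the dark and promote growth at the end of the night. Seedlings grew for 2 days in short days (SD) with 16 h of darkness each day and white light (85 µmol m-2 s-1) for the other 8 h. For 1 more day they then either stayed in SD or were kept in continuous white light (LL), and all were harvested at 24 h, when the SD seedlings had just completed a long night and the LL seedlings a subjective one. Each of the 4 combinations of genotype and light had 3 biological replicates with 1 array each, and nothing states whether they came from separate sowings, so p values measure the spread between these arrays. The values are log2 RMA signals. The array medians lay between 5.001 and 5.125, and precision is limited by having 3 arrays in a group. *PIF1* (AT2G20180) was at 8.07 to 8.58 on the WT arrays and 6.12 to 6.83 on the *pifq* arrays, *PIF3* (AT1G09530) at 7.10 to 7.73 and 3.10 to 3.98, and *PIF5* (AT3G59060) at 9.45 to 9.995 and 5.51 to 6.70, with no overlap. *RCA*, a marker of photosynthetic tissue, and *EXPA7*, a marker of root hairs, were at 12.69 to 13.20 and 7.21 to 7.82, and the other markers of leaf, root and seed reserve on the lists have no named probe set here.

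Signals of the 24 genes covered a wide range on the arrays. Their means over the 12 arrays ran from 1.97 for *CYP71B26* to 7.88 for *CYP71B5*, with a median of 4.27, against a median of 5.03 over the 38138 probe sets tested. Of the 24, 8 lay below the lower quartile of all probe sets (3.44), 8 between this and the median, 5 between the median and the upper quartile (6.99) and 3 above it. Probe sets differ in their response to the same amount of RNA, so these means place a gene within the working range of the array and are not an order of transcript amounts. The SD within groups had a median of 0.27 over the 24 genes and 0.26 over all probe sets, and 13 of the 24 were above the latter. It was smallest for *CYP71B5*, with 0.09, and largest for *CYP71B38*, with 0.79.

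**Figure D1:**
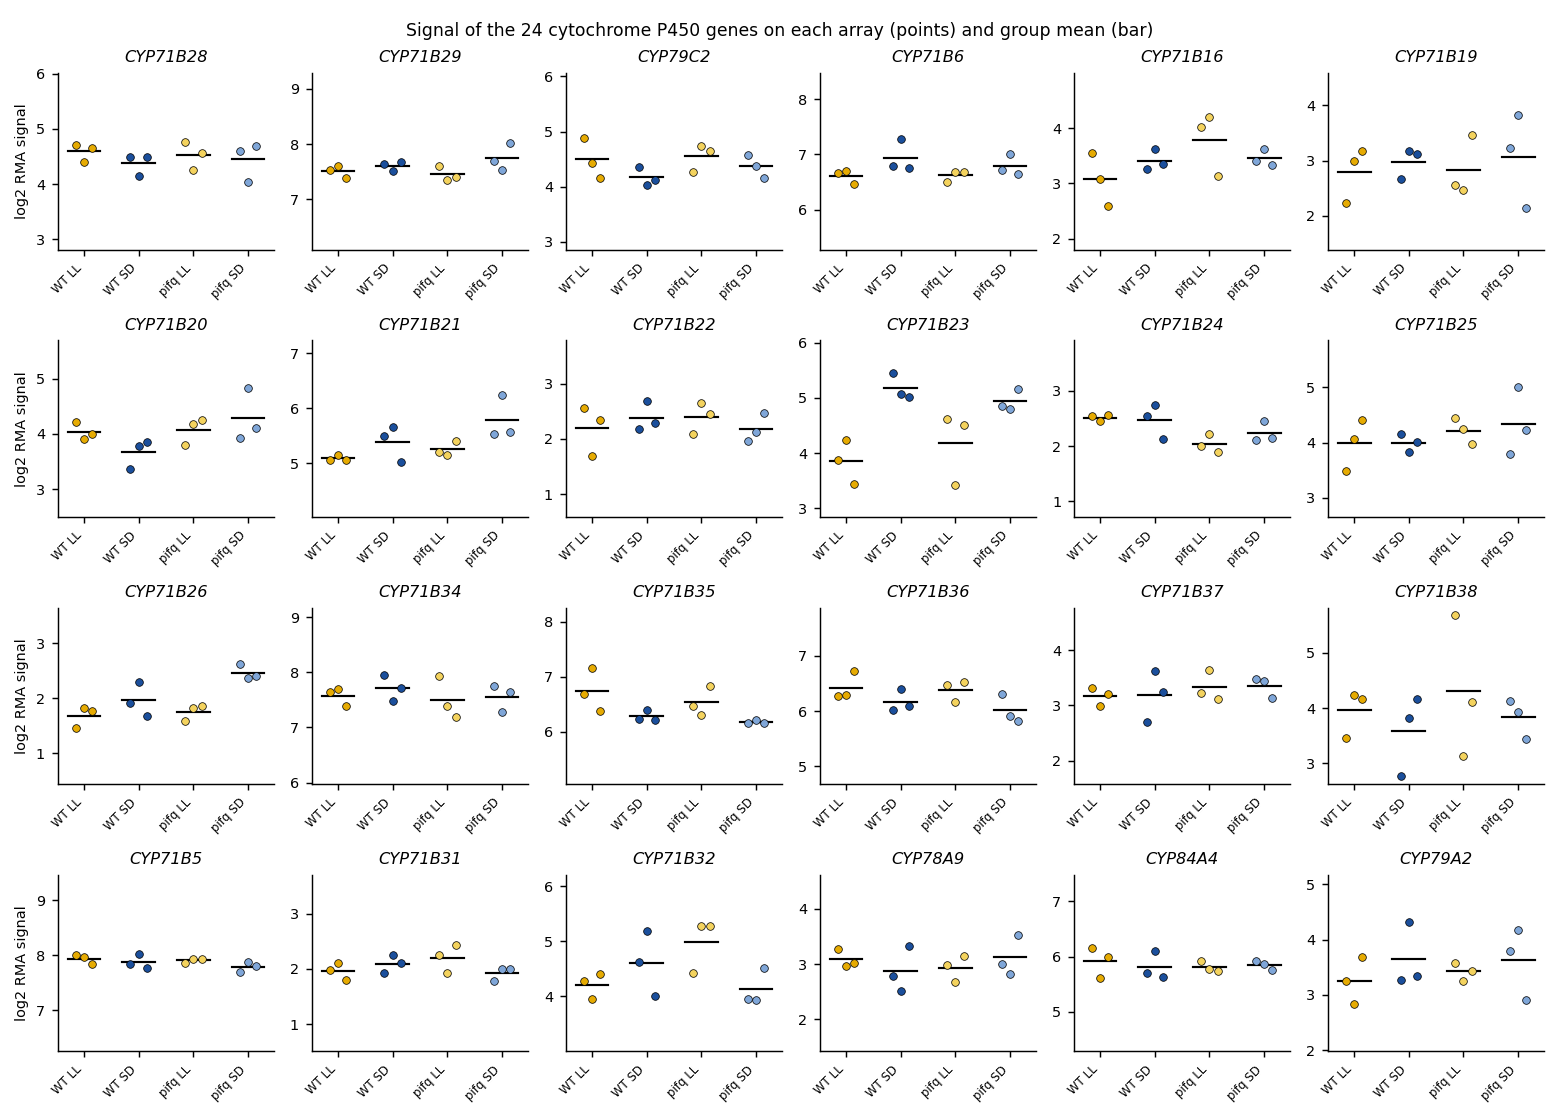
Log2 RMA signal (y axis, each panel spanning the same number of log2 units) of each P450 gene on every array of WT LL, WT SD, *pifq* LL and *pifq* SD (x axis), with points for arrays and bars for the means of 3. *CYP71B23* is the gene whose WT SD points (5.02 to 5.46) lie farthest above its WT LL points (3.44 to 4.24), and in most panels the groups overlap.

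In WT, 1 of the 24 genes was called as different between SD and LL. *CYP71B23* (AT3G26210) was at 5.46, 5.06 and 5.02 in WT SD and at 3.87, 4.24 and 3.44 in WT LL. All SD arrays thus lay above all LL arrays, and in this comparison the groups did not overlap for 28.2% of all probe sets. The log2 FC of *CYP71B23* (SD relative to LL) was 1.33 ± 0.31 (SE, n = 3 arrays per group), a 2.51-fold higher signal (95% interval of the log2 FC 0.64 to 2.02, limma adjusted p = 0.0239). Calls required a change of at least 1.5 fold and a p under 0.05 after Benjamini-Hochberg adjustment over all probe sets. In this comparison 6.6% of all probe sets were called, 3.16% as higher and 3.43% as lower, and 1 gene of 24 (4.17%) is near these shares. The share was 7.05% among the 16550 singly named genes. It was 7.95% when each distinct set of values was used once. The call of *CYP71B23* was lost without WT SD replicate 1, 2 or 3 and without WT LL replicate 1 or 3 (adjusted p 0.0543 to 0.0964, log2 FC 1.13 to 1.41), and it was kept without WT LL replicate 2 (adjusted p = 0.0319, log2 FC 1.52). The log2 FC of *RCA* in the same comparison was -0.42 (adjusted p = 0.0203, under 1.5 fold). *EXPA7* had 0.32 (adjusted p = 0.146), with 7.41 to 7.82 in WT SD above 7.21 to 7.34 in WT LL. The part of these markers in the values of *CYP71B23* was not tested. In RNA from whole seedlings a change in the number of cells that express a gene and a change per cell cannot be told apart.

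In *pifq*, *CYP71B23* was at 4.86, 4.80 and 5.15 in SD and at 4.63, 3.43 and 4.50 in LL. The SD arrays lay above the LL arrays, in a comparison where the groups did not overlap for 21.9% of all probe sets. Of the LL arrays, *pifq* LL replicate 2 was well under the other 2 of its group. The log2 FC of *pifq* SD relative to *pifq* LL was 0.75 ± 0.31 (95% interval 0.06 to 1.44, adjusted p = 0.233) and was not called, and without that array it was 0.37. The difference between the SD response of WT and that of *pifq* was 0.58 (95% interval -0.40 to 1.55, adjusted p = 0.957), so the responses of the genotypes were not shown to differ, and an equal response was not shown either. Between the genotypes in SD, the log2 FC of *CYP71B23* in *pifq* relative to WT was -0.24 ± 0.31 (95% interval -0.93 to 0.45, adjusted p = 0.909), with overlapping groups. In LL it was 0.33 ± 0.31 (adjusted p = 0.935).

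For the other 23 genes no change by SD was called in WT, and none of the 24 passed the adjusted p with a change under 1.5 fold. At an unadjusted p under 0.05 there were 2 genes (8.33%), against 19.8% of all probe sets. Besides *CYP71B23* this was *CYP71B35* (AT3G26310), which was at 6.23, 6.40 and 6.21 in WT SD and at 6.68, 7.15 and 6.38 in WT LL. Its ranges met between 6.38 and 6.40, and the log2 FC was -0.46 ± 0.19 (adjusted p = 0.216), or -0.25 without WT LL replicate 2. *CYP71B6* (AT2G24180), which acts on indole-3-acetonitrile in indolic defence metabolism, was at 6.78, 7.28 and 6.76 in WT SD and at 6.65, 6.71 and 6.46 in WT LL. These groups did not overlap, yet the log2 FC of 0.33 ± 0.16 did not pass (adjusted p = 0.304). *CYP71B20* (AT3G26180) had 3.36, 3.79 and 3.85 in SD and 4.22, 3.90 and 3.99 in LL, also without overlap, with a log2 FC of -0.37 ± 0.24 (adjusted p = 0.462). In all, the WT SD and WT LL arrays did not overlap for 3 of the 24 genes (12.5%), against 28.2% of all probe sets. The median log2 FC of the 24 was 0.06, with 14 above 0 (58.3%, against 48.2% of all probe sets) and 10 below, and their median absolute log2 FC was 0.23, as it was over all probe sets (0.23).

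How large a change could have been called differed between the genes. For the SE of each gene and the p value that the adjustment required in WT SD relative to WT LL, the smallest log2 FC that would have been called ran from 0.585, the fold requirement itself, to 2.09, with a median of 0.77. *CYP71B5* (AT3G53280) was at 7.83, 8.02 and 7.77 in WT SD and at 8.00, 7.96 and 7.85 in WT LL, and its interval of -0.30 to 0.17 leaves room for little change in either direction. *CYP71B38* (AT3G44250) was at 2.76, 3.82 and 4.17 in WT SD and at 3.46, 4.24 and 4.17 in WT LL, and its interval of -1.65 to 0.91 holds changes of more than 1.5 fold in both directions. For 6 of the 24 genes the 95% interval lay within 1.5 fold in both directions, and for 19 within 2 fold. The signal of a gene that was not called is thus bounded to less than 2 fold in most cases. For genes below the lower quartile of all probe sets such a bound holds for the array signal only. RMA compresses differences of dim probe sets, so the change of their transcripts is not bounded by it.

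**Figure D2:**
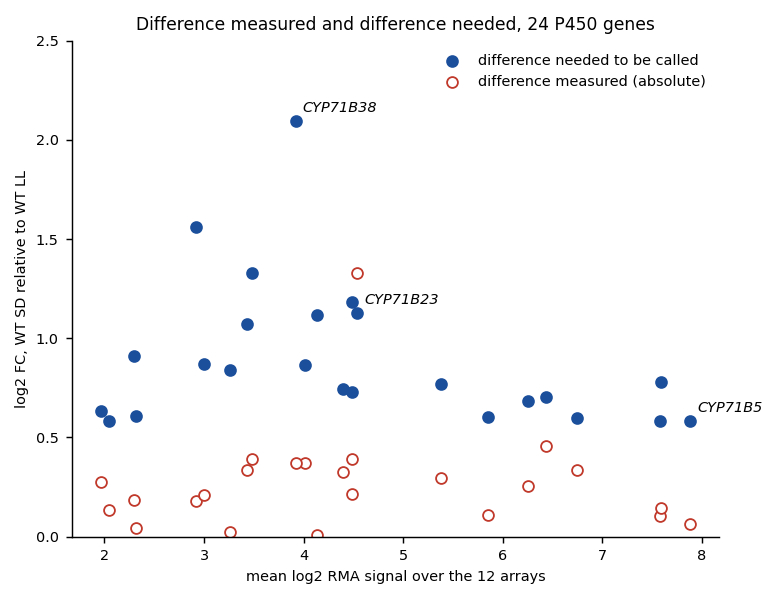
Difference between WT SD and WT LL (y axis, absolute log2 FC) against the mean log2 RMA signal of the 12 arrays (x axis) for the 24 genes. Filled points give the smallest difference that would have been called for each gene, 0.585 to 2.09, and open points the difference measured, which lies above its own filled point for *CYP71B23* alone.

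Loss of PIFq in SD moved none of the 24 genes past the test (limma, 2 at an unadjusted p under 0.05). Of all probe sets, 1.49% were called there and 10.7% had an unadjusted p under 0.05, against 8.33% of the 24. The closest to a call were *CYP71B26* and *CYP71B20*, both in the tandem array of chromosome 3, with higher signals in *pifq*. *CYP71B20* was at 3.93, 4.83 and 4.10 in *pifq* SD, above the WT SD arrays given earlier, and its log2 FC was 0.62 ± 0.24 (95% interval 0.09 to 1.15, adjusted p = 0.344), or 0.35 without *pifq* SD replicate 2. *CYP71B26* (AT3G26290) was at 2.62, 2.36 and 2.40 in *pifq* SD and at 1.91, 2.29 and 1.68 in WT SD, with a log2 FC of 0.50 ± 0.17 (95% interval 0.12 to 0.89, adjusted p = 0.272). In each of these 2 genes the groups did not overlap, which was the case for 15.6% of all probe sets. Over the 24 genes the median log2 FC was 0.04, with 13 above 0 (54.2%, against 55.5% of all probe sets), and the range was -0.47 to 0.62. The interval lay within 1.5 fold for 8 genes and within 2 fold for 19.

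In *pifq* SD relative to *pifq* LL, *CYP71B26* was called, as 1 of 24 genes (4.17%) against 3.66% of all probe sets. Beside its SD values given above, it was at 1.58, 1.82 and 1.86 in *pifq* LL, and the log2 FC was 0.70 ± 0.17 (95% interval 0.32 to 1.09, adjusted p = 0.0477). In WT, the same comparison gave 0.27 ± 0.17 (adjusted p = 0.459), and the difference of the responses was -0.43 (95% interval -0.98 to 0.11, adjusted p = 0.876). The signal of this gene is among the lowest on the array, with 0.95% of the probe sets tested below its mean. Leaving out a WT LL, *pifq* SD or *pifq* LL array, whichever it was, or WT SD replicate 1, took the adjusted p to between 0.0547 and 0.139 and the call was lost with the log2 FC at 0.62 to 0.76, whereas it held without WT SD replicate 2 or 3 (adjusted p 0.0299 and 0.0452). It was also lost when the WT arrays were kept out of the fit (adjusted p = 0.132) or when a variance trend and robust moderation were used together (adjusted p = 0.111). *CYP71B21* (AT3G26190), at 5.53, 6.24 and 5.57 in *pifq* SD and 5.21, 5.16 and 5.40 in *pifq* LL, had a log2 FC of 0.52 ± 0.21 (adjusted p = 0.223), or 0.29 without *pifq* SD replicate 2. Its groups did not overlap, as those of *CYP71B23*, *CYP71B26* and *CYP71B35* did not, which makes 4 of 24 (16.7%) against 21.9% of all probe sets. At an unadjusted p under 0.05 there were also 4 of 24, against 18% of all probe sets, and 14 of the 24 log2 FCs were above 0 (58.3%, against 48.1%).

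*CYP71B32* (AT3G53305) had the largest difference between the genotypes in their SD response. It was at 4.63, 5.19 and 4.003 in WT SD, 4.28, 3.95 and 4.40 in WT LL, 3.95, 3.93 and 4.51 in *pifq* SD and 4.42, 5.27 and 5.28 in *pifq* LL. Its *pifq* LL arrays lay above its WT LL arrays, and the other groups overlapped. The log2 FC of SD relative to LL was 0.39 ± 0.32 in WT (adjusted p = 0.594) and -0.86 ± 0.32 in *pifq* (adjusted p = 0.188). The difference of 1.25 ± 0.46 (95% interval 0.23 to 2.27) did not pass the test (adjusted p = 0.577). None of the 24 genes was called for the difference of the SD response (limma, 1 at an unadjusted p under 0.05), where 0.155% of all probe sets were called and 6.59% had such a p. The difference was above 0 for 12 of the 24, against 49.3% of all probe sets.

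In *pifq* LL relative to WT LL none of the 24 was called either (limma, 3 at an unadjusted p under 0.05), against 0.0184% of all probe sets called and 6.24% at that unadjusted p. The 3 were *CYP71B32*, with a log2 FC of 0.78 ± 0.32 (adjusted p = 0.760), *CYP71B16* (AT3G26150), with 0.71 ± 0.29 (adjusted p = 0.759), and *CYP71B24* (AT3G26230), with -0.48 ± 0.17 (adjusted p = 0.689). *CYP71B16* was at 4.02, 4.20 and 3.14 in *pifq* LL and 3.56, 3.07 and 2.60 in WT LL, which overlap, and its log2 FC was 0.47 without WT LL replicate 3. *CYP71B24* was at 1.99, 2.22 and 1.89 and at 2.54, 2.45 and 2.56, which do not, and both genes lay below the lower quartile of all probe sets. With *CYP71B21* and *CYP71B32*, the groups did not overlap for 3 of the 24 (12.5%), against 13.3% of all probe sets, and 15 log2 FCs were above 0 (62.5%, against 54.6%).

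**Figure D3:**
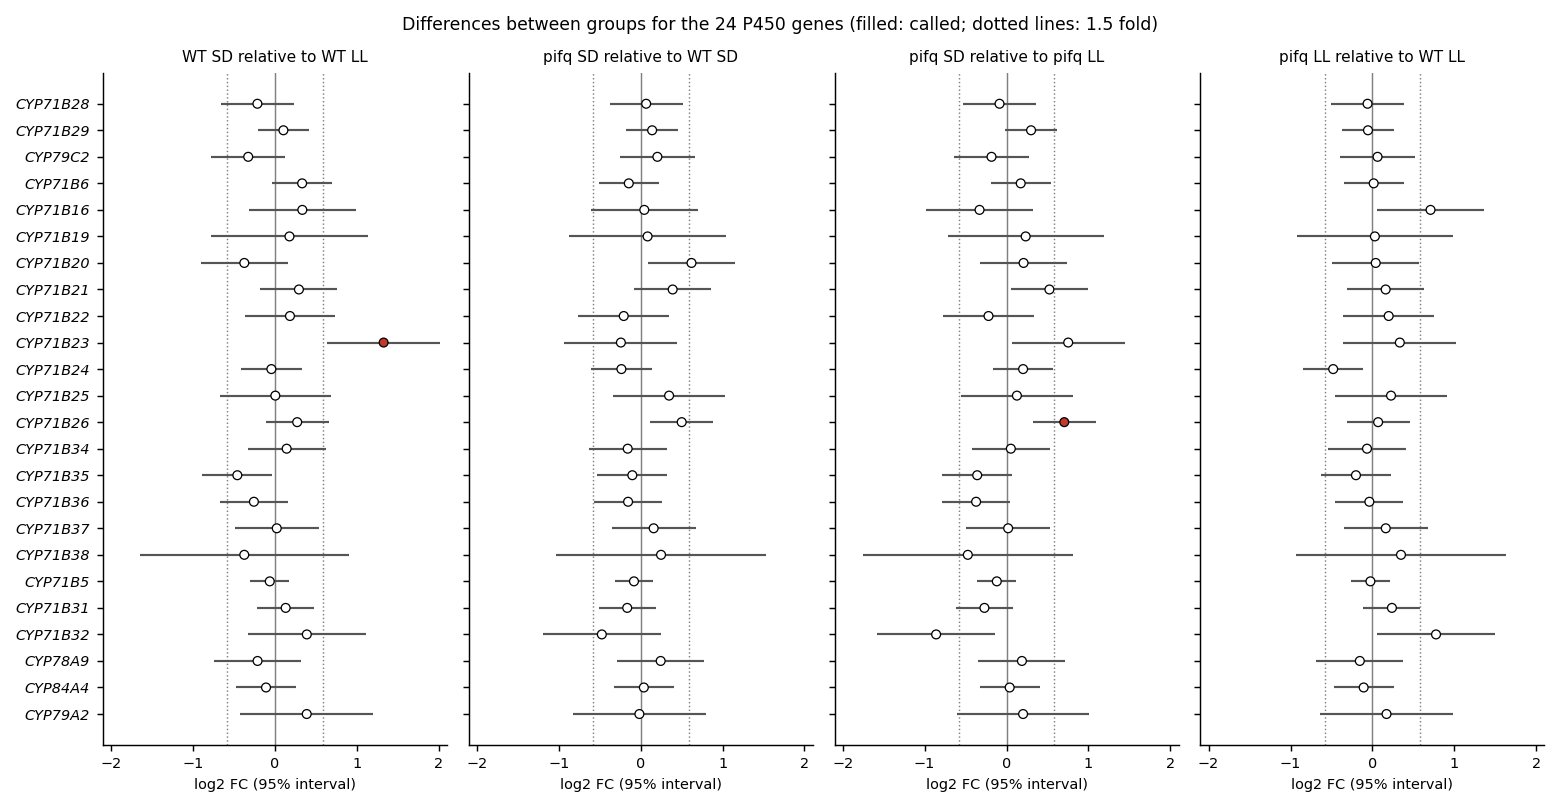
Log2 FC (x axis, points) with 95% interval (lines) of the 24 genes (y axis) in 4 panels, which compare SD with LL within WT and within *pifq*, and *pifq* with WT within SD and within LL. Filled points are the 2 called values, *CYP71B23* at 1.33 and *CYP71B26* at 0.70, and the widest intervals belong to *CYP71B38*.

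Position was a feature that the choice of genes did not use. In the gene order of RefSeq (TAIR10.1), 18 of the 24 genes are on chromosome 3, and 13 of these lie in 1 stretch of 25 genes, of which 18 carry a CYP71B name. The other 5 CYP71B genes and pseudogenes of the stretch have no named probe set here. Along the stretch the 13 follow each other as *CYP71B16*, *CYP71B19*, *CYP71B20*, *CYP71B21*, *CYP71B22*, *CYP71B23*, *CYP71B24*, *CYP71B25*, *CYP71B26*, *CYP71B34*, *CYP71B35*, *CYP71B36* and *CYP71B37*. The called *CYP71B23* and *CYP71B26* are both in it, at the places 6 and 9, as are 13 of the 24 genes in all. They were called in different comparisons. The direct neighbours of *CYP71B23* among the 13 did not share its value. *CYP71B22* (AT3G26200) was at 2.18, 2.68 and 2.30 in WT SD and 2.56, 1.69 and 2.35 in WT LL, with a log2 FC of 0.19 ± 0.25, and *CYP71B24* had -0.04 ± 0.17. Both signals lay below the lower quartile of all probe sets.

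The 4 genes at the end of the stretch, *CYP71B34* to *CYP71B37*, follow each other with no other gene between them. *CYP71B34* (AT3G26300) was at 7.96, 7.48 and 7.72 in WT SD and at 7.64, 7.70 and 7.38 in WT LL, with a log2 FC of 0.14 ± 0.21 in WT and 0.05 ± 0.21 in *pifq*. For *CYP71B35* the log2 FC was -0.46 ± 0.19 in WT and -0.36 ± 0.19 in *pifq*, where its arrays were at 6.16, 6.21 and 6.17 in SD and 6.47, 6.32 and 6.83 in LL. *CYP71B36* (AT3G26320) had -0.26 ± 0.19 and -0.37 ± 0.19, and *CYP71B37* (AT3G26330) had 0.02 ± 0.23 and 0.02 ± 0.23. None of these values passed the test (adjusted p 0.216 to 0.983). The remaining members of the stretch, *CYP71B19* (AT3G26170) and *CYP71B25* (AT3G26270), had log2 FCs of 0.18 ± 0.43 and 0.01 ± 0.31 in WT, with the SE of *CYP71B19* the widest of the 13. Over the 13 genes the median log2 FC was 0.14 in WT and 0.13 in *pifq*, and over the 11 genes elsewhere it was -0.06 and -0.09. Of the 13, 9 were above and 4 below 0 in each genotype, where 48.2% and 48.1% of all probe sets were above 0. Neighbouring genes are not independent replicates. The 13 lay on average 0.15 above their group means in WT SD replicate 2 and 0.17 in *pifq* SD replicate 2. Over all probe sets the deviations of these 2 arrays correlated with r = 0.348. The part of these arrays in the shared direction was not tested. In each genotype 1 of the 13 was called, where 6.6% of all probe sets were called in WT and 3.66% in *pifq*. The sequences of the probes were not examined, so a share of signal from related neighbours was not tested.

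**Figure D4:**
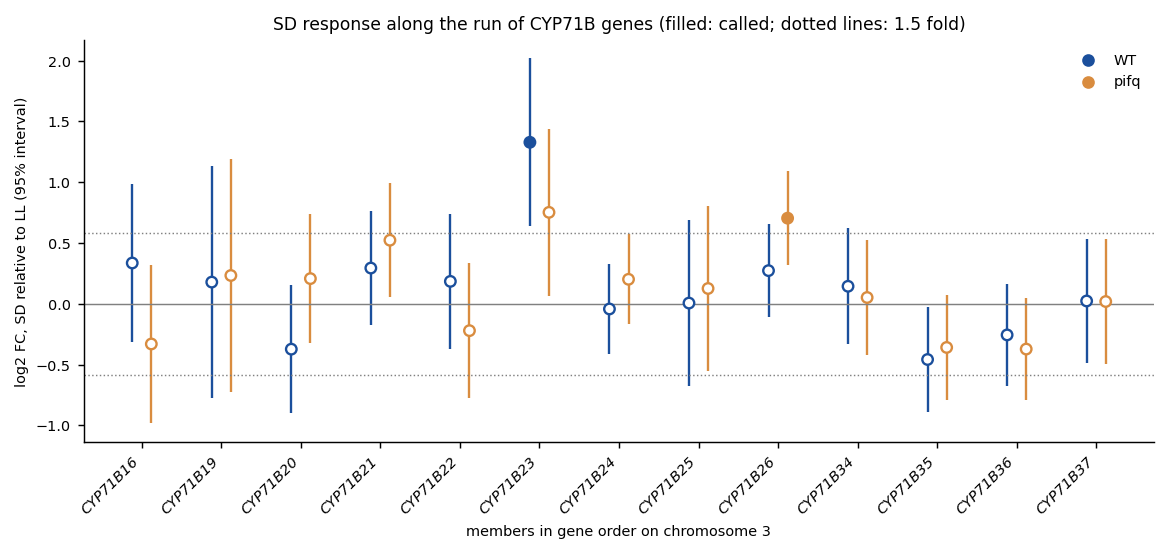
Log2 FC of SD relative to LL with its 95% interval (y axis) in WT (blue) and *pifq* (orange) for the 13 CYP71B genes of the stretch on chromosome 3, in gene order (x axis, not to distance). Filled points are called: *CYP71B23* in WT at 1.33 and *CYP71B26* in *pifq* at 0.70.

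No gene of the smaller groups of neighbours was called in any comparison, where the share of all probe sets called was 0.0184% to 6.6%. *CYP71B28* (AT1G13090) and *CYP71B29* (AT1G13100) are adjacent on chromosome 1. *CYP71B29* was at 7.65, 7.50 and 7.67 in WT SD and 7.53, 7.59 and 7.38 in WT LL, and its log2 FC was 0.11 ± 0.14 in WT and 0.30 ± 0.14 in *pifq* (adjusted p 0.775 and 0.306). *CYP71B28*, between 4.05 and 4.77 on all arrays, had -0.21 ± 0.20 and -0.09 ± 0.20. On chromosome 3, *CYP71B5*, *CYP71B31* and *CYP71B32* lie near each other. *CYP71B31* (AT3G53300), which oxidises linalool in flowers, stayed between 1.79 and 2.43, with 1.67% of all probe sets below its mean. Its log2 FC was 0.13 ± 0.16 in WT and -0.27 ± 0.16 in *pifq*.

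The 4 genes outside CYP71B were not called in any of the 5 comparisons, in which 0.0184% to 6.6% of all probe sets were called. CYP79 enzymes convert amino acids to aldoximes, the entry to glucosinolates and camalexin. *CYP79A2* (AT5G05260), which uses phenylalanine to start benzylglucosinolate synthesis, was at 3.26, 4.32 and 3.34 in WT SD and 3.25, 2.83 and 3.68 in WT LL. The ranges of the groups overlapped, with WT SD replicate 2 apart from the other 2, and the log2 FC was 0.39 ± 0.36 (adjusted p = 0.647). *CYP79C2* (AT1G58260) was at 4.35, 4.02 and 4.13 and at 4.89, 4.43 and 4.16, with a log2 FC of -0.32 ± 0.20 (adjusted p = 0.455). *CYP84A4* (AT5G04330), an enzyme of the arabidopyrone branch of phenylpropanoid metabolism, varied between 5.62 and 6.15 over all 12 arrays. Its log2 FC was -0.11 ± 0.17 for SD against LL in WT and 0.04 ± 0.17 for *pifq* against WT in SD (95% interval -0.33 to 0.41), so a change of 1.5 fold lay outside its interval. *CYP78A9* (AT3G61880), which promotes growth of fruits and seeds, had a low signal of 2.51 to 3.53, with -0.21 ± 0.24 and 0.24 ± 0.24 in the same comparisons.

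The SD response in WT and that in *pifq* were measured on separate arrays and can be set beside each other. Their errors may still be shared in part. Same-numbered WT SD and *pifq* SD arrays correlated with 0.147, 0.348 and 0.081 in their deviations from the group means. Across the 24 genes their log2 FCs were correlated with r = 0.44 (Pearson) and rho = 0.33 (Spearman), and 16 had the same sign (66.7%). Without *CYP71B23* r was 0.22. Over all probe sets r was 0.45 and 67.0% had the same sign, with a rho of 0.43. For the effect of *pifq* in SD and in LL, r was -0.11 and 14 of 24 had the same sign (58.3%), against 0.13 and 56.8%. Genes are not independent replicates, and neighbours of 1 subfamily less so.

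Lists drawn up for redox transfer and for the synthesis of glucosinolates, brassinosteroids, abscisic acid, cutin, phenylpropanoids, gibberellins and thalianol held 63 genes. Some of these are P450s themselves. The annotation names 4 of the 63, and none of the 4 is a P450. *UGT74C1* (AT2G31790), a glucosyltransferase of aliphatic glucosinolate synthesis downstream of the CYP79 and CYP83 steps, was at 5.96, 5.83 and 5.92 in WT SD and 6.85, 6.91 and 6.88 in WT LL. On the log2 scale it fell by 0.98 ± 0.09 (adjusted p = 0.000137) with SD in WT and by 0.70 ± 0.09 (adjusted p = 0.00263) with SD in *pifq*. Between the genotypes in SD it had 0.47 ± 0.09 in *pifq* relative to WT (adjusted p = 0.0346), under 1.5 fold. *HCT* (AT5G48930), an acyltransferase of lignin precursor synthesis, fell in *pifq* SD relative to *pifq* LL by 0.70 ± 0.13 (adjusted p = 0.0140) and had -0.33 ± 0.13 in WT (adjusted p = 0.177). *UGT74B1* (AT1G24100), the glucosyltransferase of the same step as *UGT74C1*, and *ATR3* (AT3G02280), a diflavin reductase, were not called in any comparison, with -0.38 ± 0.13 and 0.17 ± 0.13 in WT SD.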

How the data were processed

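The authors hybridised total RNA of 12 samples to 1 array each, and deposited log2 signals made with RMA per the labels (version not given in the sources). RMA subtracts a modelled background, equalizes the distributions of the arrays and condenses the probes to 1 value per probe set, which compresses differences of dim probe sets. The study's own calls came from Rosetta Resolver, which was not used here. The labels and the methods name different growth media.

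The table holds 38408 probe sets. Controls (98) were left out, and so were 172 probe sets of genes that had a brighter one. The remaining 38138 entered a limma fit (limma 3.58.1, R 4.3.3) of all 12 arrays, with 1 mean per group and moderated variances. The annotation names 1 gene for 16722 probe sets and none for 20829. Of the probe sets other than controls, 7132 share all 12 values with another. In all, 5 comparisons were made, with the thresholds of the methods (Benjamini-Hochberg adjusted p under 0.05, 1.5 fold). All adjusted p values were given by limma, and intervals are 95% intervals of the moderated fit. The procedure was tested on simulated data. *PIF1*, *PIF3* and *PIF5* were named through the probe set codes and loci of the study's supplementary list, whose values were not used. Loci and gene order came from RefSeq (TAIR10.1). Tables and figures were made with Python 3.11.15, pandas 2.3.3, numpy 2.4.6 and matplotlib 3.10.9.

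The members, the partner lists and the rule for naming genes were chosen with earlier results of these data known. The rule names every called member, the 10 with the highest mean signal and up to 4 called genes of each partner list, and the other members were added so that each of the 24 is accounted for. No sequences are shown.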

Additional observations from a re-analysis of the deposited data

How the results depend on the processing

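The 12 differences of single genes with an unadjusted p under 0.05, picked by that p in these same data, kept their direction wherever they could be computed. Of the 22 alternatives, only another scaling or the loss of an array of the groups compared can change a log2 FC. The filters, variance models, choices of probe sets and replicate block leave it as it is, so its direction was fixed there. The number of P450 genes called for SD against LL in WT stayed at 1, *CYP71B23* (log2 FC 1.33 to 1.37 with all arrays), under every other scaling, filter, variance model and choice of probe sets, and was 0 to 1 when 1 array was left out. In *pifq* SD relative to *pifq* LL it was 1, *CYP71B26*, and fell to 0 after quantile normalization once more (adjusted p = 0.0809), with probe sets above the lower quartile only, where the gene itself is filtered out, with a variance trend and robust moderation together (adjusted p = 0.111), with only the arrays compared (adjusted p = 0.132) and with a replicate block (adjusted p = 0.0707), and it was 0 to 1 when 1 array was left out. The call of *CYP71B26* thus depends on these settings. In the other 3 comparisons the number was 0 under every alternative, including the fit to the 16550 singly named genes, which was chosen after seeing the data. Replicate numbers were not used as pairs, since the correlation of same-numbered arrays in their deviations from the group means was in no comparison above 0.1 for all pairs. It ranged from -0.067 to 0.348. For *pifq* SD and WT SD it was 0.147, 0.348 and 0.081, against -0.232 to 0.119 between arrays of different numbers. The block changed no other call of the 24 genes. Low signal limits 8 of the 24 genes, which lie below the lower quartile of all probe sets, with a median SD within groups of 0.30 against 0.26 for the other members.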

Other observations

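Within WT SD, replicate 2 held the highest value of its group for 15 of the 24 P450 genes, against 36.0% of all probe sets, and the 24 lay on average 0.15 above their group means there on the log2 scale. Within *pifq* SD, replicate 2 held the highest value for 11 of the 24, and for 7 of the 13 genes of the stretch on chromosome 3, against 35.5% of all probe sets. *CYP71B20*, *CYP71B21*, *CYP71B25* and *CYP71B19* were among them, at 4.83, 6.24, 5.01 and 3.83. In *pifq* LL, *CYP71B38* was at 5.68, 3.12 and 4.12, the widest spread of any group of the 24 genes.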
